A study of Mus musculus with 15 samples.

Results

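Hepatocytes sorted as 4n-bottom were compared with hepatocytes sorted as 2n-whole from the same livers. The comparison used 8 of the 15 libraries of the series, 4 of each population, and paired them by the subject number in the labels, which stands for the mouse. All libraries came from WT C57BL/6JJcl adult males with no treatment, and no allele or agent separated the groups. Live hepatocytes stained with the DNA dye Hoechst were divided by the area of the Hoechst signal into 2n and 4n cells. The 4n cells were divided further by the height of the signal, and 4n-bottom holds those of lower height, a gate designed to enrich cells with 2 nuclei of 2n each, whereas 4n-whole is the undivided 4n gate and 4n-top its upper part. The purity of the gates was not analysed here. Of 55984 genes in the counts, 17488 passed the filter on low counts and were tested.

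Hepatocytes become polyploid after weaning, mostly because cytokinesis fails and leaves a binucleated tetraploid cell, which can later give mononucleated tetraploid cells. They also differ by place in the liver lobule. Blood enters at the portal vein and leaves at the central vein, and periportal cells lead in urea and glucose synthesis, whereas pericentral cells under Wnt signalling lead in glutamine synthesis, bile acid synthesis and drug metabolism by cytochrome P450 enzymes.

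The libraries held 31814400 to 42096421 counts in 2n-whole and 31461234 to 40831810 in 4n-bottom, so that 3 counts corresponded to 0.0713 to 0.0954 CPM (counts scaled to the size of each library), a detection limit that covers counting error only. The sources used here do not say whether both reads of a pair were counted, and 74.2% to 81.4% of the counts from 1 to 10 in a library were even, so that fewer fragments than counts may lie behind these totals and this limit. Expression is given as CPM after TMM normalization, a scaling of the libraries to each other. The hepatocyte gene Alb lay at 60622 to 69618 CPM in 2n-whole and at 57184 to 72067 CPM in 4n-bottom, with no gap between the groups. The share of counts on mitochondrial genome genes was 20.5%, 23.2%, 26.2% and 26.0% in the 2n-whole libraries of mice 1 to 4 and 23.6%, 15.0%, 12.2% and 14.0% in 4n-bottom. Mouse 1 thus stood apart, with the only 4n-bottom library inside the range of 2n-whole. According to the methods of the study, sorted 2n cells were collected at a higher centrifugal force and for longer than 4n cells, and this step cannot be told apart from ploidy in the comparison.

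A total of 81 genes differed between 4n-bottom and 2n-whole, 0.463% of those tested, called where the adjusted p was under 0.05 and the log2 fold change beyond 0.5 in either direction (edgeR's quasi-likelihood test with the mouse as a block). Of these, 41 were higher in 4n-bottom (0.234%) and 40 were lower (0.229%). The higher genes had a median log2 fold change of 0.98 and reached 2.96, and the lower genes had a median of -0.91 and reached -2.09. All 41 higher genes moved the same way in all 4 mice, as did the 29 lower genes outside the mitochondrial genome, whereas only 2 of the 11 lower mitochondrial genes did so. The median over all tested genes was 0.0045. An unadjusted p under 0.05 was obtained for 966 genes higher (5.52%) and 811 genes lower (4.64%). At the fold limit, Igfbp2 (0.51) lay just inside, and Ptk2b (0.48, adjusted p = 0.0357) and Mup20 (-0.48, adjusted p = 0.022) lay just outside. The calls rested on the pairing, since edgeR called 0 genes without the mouse in the model, with 866 genes at an unadjusted p under 0.05. Of the 81 genes, 34 were called in each of the 4 fits that left out 1 mouse. Another 3, Cyp4a31, Gm19619 and Rpl10a-ps1, were called in 0 of these fits. Without mouse 4 the count was 49, of which 48 were among the 81.

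**Figure D1:**
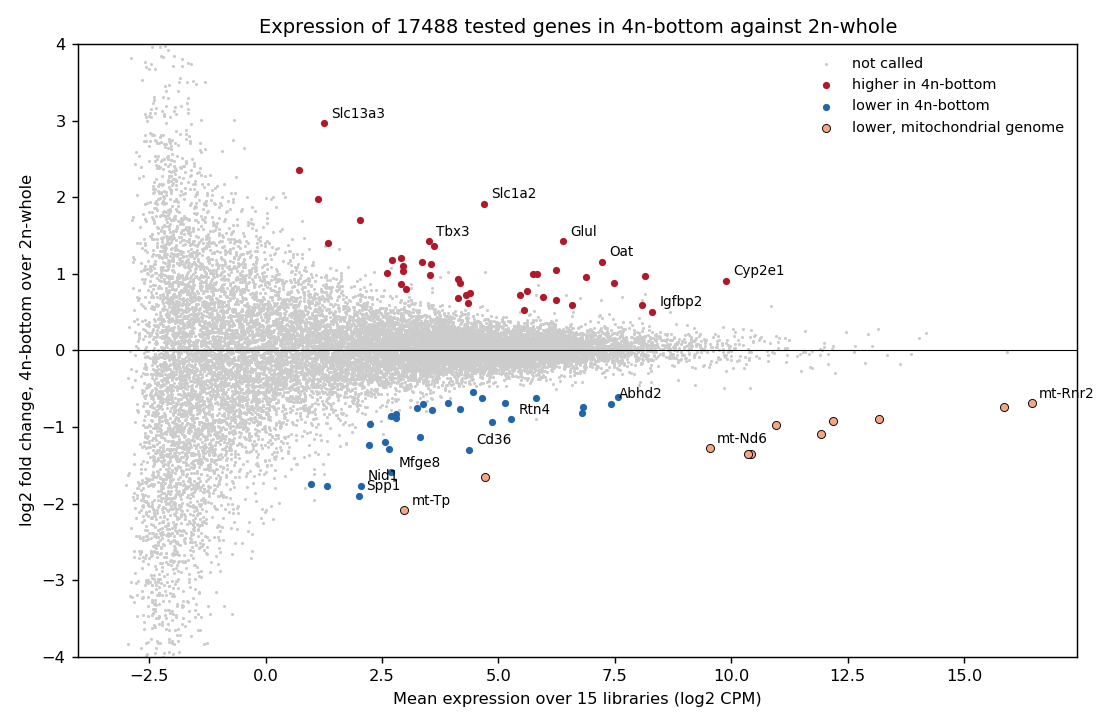
Log2 fold change of 4n-bottom over 2n-whole (y axis) against the mean log2 CPM over 15 libraries (x axis), 1 point per tested gene. The 41 higher genes are red and the 40 lower genes blue or, for the mitochondrial genome, orange, and 194 genes that were not called lie beyond the y axis.

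Several genes of the cells next to the central vein rose in 4n-bottom. Slc1a2, a glutamate transporter of these hepatocytes (chr2:102488574-102621129, + strand, GRCm39), was at 4.22, 3.89, 13.8 and 19.0 CPM in the 2n-whole libraries of mice 1 to 4 and at 20.7, 11.42, 61.4 and 62.3 CPM in 4n-bottom. Every mouse was higher in 4n-bottom, although the groups overlapped because mice 3 and 4 expressed more of the gene in both populations. The log2 fold change was 1.92 ± 0.19 (SE; adjusted p = 1.66e-06). Glul, glutamine synthetase, which captures ammonia in the same cells (chr1:153775690-153785469, + strand), was at 29.1, 24.0, 43.0 and 66.8 CPM in 2n-whole and at 85.1, 41.0, 141 and 211 CPM in 4n-bottom. Its log2 fold change was 1.43 ± 0.15 (adjusted p = 2.06e-06), again with higher values in all 4 mice and overlapping groups, and mouse 2 changed least (0.77 against 1.55 to 1.71 in the others).

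Slc13a3, a transporter of dicarboxylates, had the highest fold change among the 81 genes. It was at 0.296, 0.181, 0.487 and 1.09 CPM in 2n-whole and at 2.00, 1.78, 4.64 and 6.04 CPM in 4n-bottom, so the groups did not overlap, with a log2 fold change of 2.96 ± 0.37 (adjusted p = 7.96e-05). Tbx3, a transcription factor induced by Wnt signalling, rose from 1.87, 3.17, 5.22 and 4.94 CPM to 8.80, 7.70, 13.6 and 9.61 CPM, with no overlap and a log2 fold change of 1.42 ± 0.21 (adjusted p = 0.00042). Oat, ornithine aminotransferase, which feeds glutamate into the glutamine route, rose from 45.8, 60.8, 67.4 and 83.9 CPM to 89.3, 99.5, 185 and 248 CPM. Its groups did not overlap either (log2 fold change 1.16 ± 0.19, adjusted p = 0.00129). Avpr1a, the hepatic vasopressin receptor, was higher by 1.204 ± 0.22 (adjusted p = 0.00576), on low values of 1.33 to 4.38 CPM in 2n-whole and 2.45 to 10.8 CPM in 4n-bottom.

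**Figure D2:**
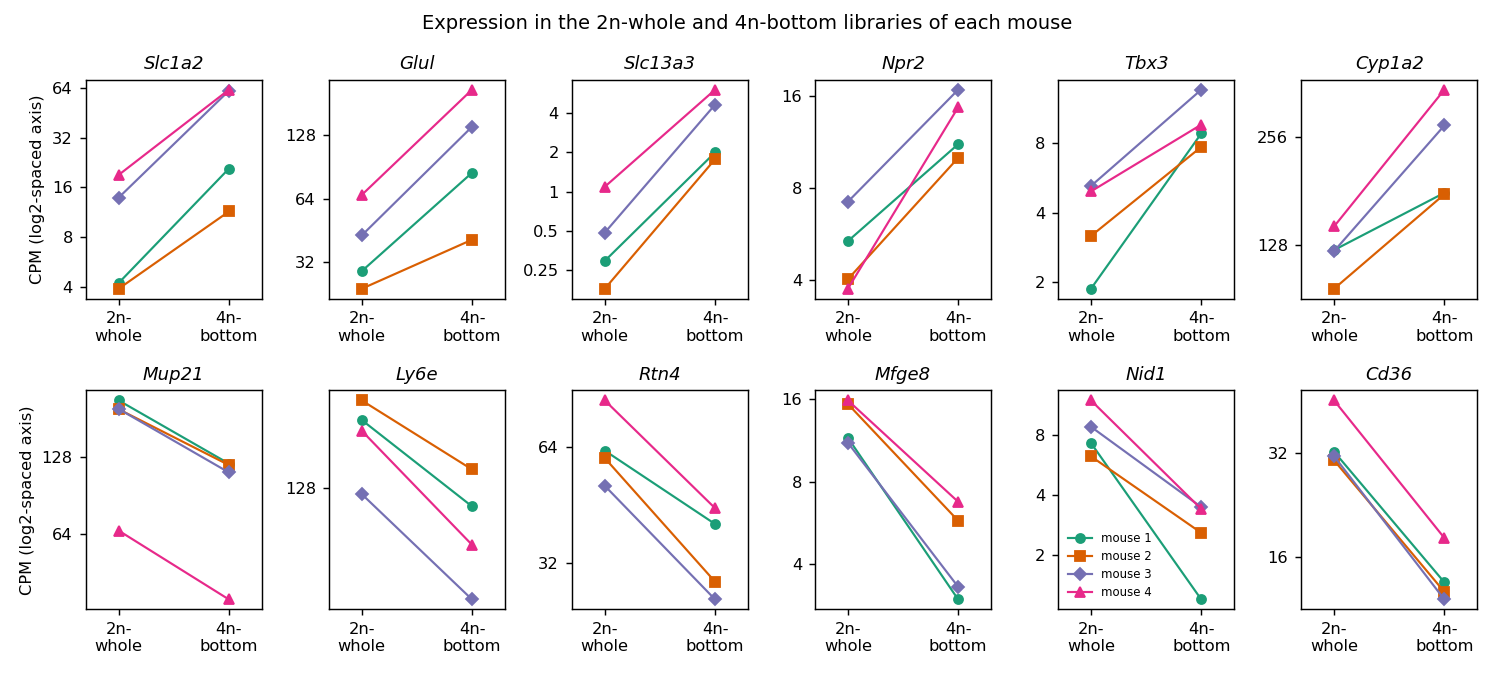
CPM (y axes, spaced as log2) of 12 of the called genes in the 2n-whole and 4n-bottom libraries, with a line for each of the 4 mice. Every line rises for the 6 genes of the upper row and falls for the 6 genes of the lower row.

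Of the 33 pericentral landmark genes listed, 32 were tested, 11 were higher and 0 were lower. Their median log2 fold change was 0.77, against 0.0045 over all tested genes, and 26 of the 32 had an unadjusted p under 0.05 in the higher direction. The groups did not overlap for 9 of them on the higher side, against 296 (1.69%) of all tested genes. The list was chosen with earlier results of these data known, so its contrast with all tested genes is descriptive only. Wnt feedback genes did not pass the test. Lgr5, the receptor that amplifies Wnt signals, was at 0.271, 0, 1.04 and 0.546 CPM in 2n-whole and at 0.800, 1.46, 1.59 and 1.18 CPM in 4n-bottom (adjusted p = 0.241). Axin2, a feedback inhibitor of the pathway, was at a log2 fold change of 0.98 ± 0.31 (adjusted p = 0.232), and the ubiquitin ligases Rnf43 (0.43, adjusted p = 0.231) and Znrf3 (0.14, adjusted p = 0.804) were not called. The glutathione transferases Gstm1 (-0.13) and Gstm3 (-0.34) were the 2 listed genes with a negative value, and neither passed the adjusted test. The count of pericentral calls lay between 9 and 18 with 1 mouse left out and was 0 without the mouse in the model.

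P450 enzymes of drug metabolism were among the higher genes. Cyp1a2, a P450 enzyme that oxidizes caffeine and arylamines (chr9:57584196-57590986, - strand), was at 124, 96.2, 123 and 144 CPM in 2n-whole and at 179, 177, 276 and 348 CPM in 4n-bottom. The groups did not overlap, and the log2 fold change was 0.98 ± 0.15 (adjusted p = 0.000569). Cyp2e1, which oxidizes ethanol (chr7:140343652-140355167, + strand), was at 264, 292, 513 and 429 CPM in 2n-whole and at 510, 420, 1019 and 1057 CPM in 4n-bottom, with a log2 fold change of 0.91 ± 0.19 (adjusted p = 0.0153). Mouse 2 rose least for Cyp2e1 (0.52), and the 4n-bottom libraries of mice 1 and 2 lay below the highest 2n-whole library. Cyp2a5, a coumarin hydroxylase, rose by 0.95 ± 0.14 (adjusted p = 0.000442) from 17.0, 47.2, 69.7 and 71.9 CPM to 26.9, 78.6, 169 and 156 CPM.

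Among 42 tested P450 enzymes of xenobiotic metabolism, 13 were higher and 4 lower at an unadjusted p under 0.05. The shares over all tested genes were 5.52% and 4.64%. Of the 42, edgeR called 7 higher and 1 lower (0.234% and 0.229% of all), with a median log2 fold change of 0.11. The other higher members were Cyp2c37 (0.99), Cyp2c38 (1.13), Cyp2c40 (1.18) and Cyp2c67 (0.66), and the lower member was Cyp2b10 (-0.54, adjusted p = 0.0359), the classical target of the receptor CAR. The gene of that receptor, Nr1i3, was itself higher, at 2.83, 5.34, 17.3 and 10.7 CPM in 2n-whole and 6.06, 10.6, 31.1 and 16.5 CPM in 4n-bottom (log2 fold change 0.88 ± 0.16, adjusted p = 0.00519). The Cyp2c genes are near-identical copies, so reads may have been divided among them, and their separate values are uncertain. Cyp26a1, which clears retinoic acid, was higher by 0.73 (adjusted p = 0.00435). The P450 count was 4 without mouse 1 or mouse 4, and 11 without mouse 2. Of the 4 fits that left out a mouse, Cyp2b10 and Cyp2c38 were called in 1 each. Cyp2c67 was called in 2, Cyp2c40 in 3, and Cyp2c37 and Nr1i3 in 4. The P450 list was also chosen with earlier results of these data known.

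The 250 bases before the annotated start of 5 called P450 genes are shown because Wnt target and liver promoters are known for short motifs, and these 5 held a match. The motifs searched on both strands were CTTTGAT and CTTTGAA, forms of the TCF binding site, CAAAGTCCA, a form of the HNF4A site, and TATAAA. The form CTTTGAA was found in 2 of 31 higher protein-coding genes (Cyp1a2 and Cyp2e1), in 0 of 28 lower genes and in 3.77% of 12571 promoters of tested genes. CTTTGAT was found in 0 higher and 2 lower genes (Apoa4 and Steap2), against 2.26% of all. CAAAGTCCA was found in 3 higher genes (Cyp8b1, Cyp2c40 and Cyp2c67), in 0 lower genes and in 0.39% of all. The windows of Cyp2c40 and Cyp2c67 share the sequence around the match, so these matches are not independent of each other. TATAAA was found in 7 higher and 6 lower genes, against 7.69% of all. The sequences are from GRCm39 in the direction of the gene, 5′ to 3′, with the matches in capitals. All windows searched end at the start of the Ensembl canonical transcript, which in some genes lies inside the gene. The printed windows are chr9:57590987-57591236 (-) for Cyp1a2, chr7:140343402-140343651 (+) for Cyp2e1, chr9:121745372-121745621 (-) for Cyp8b1, chr19:39801259-39801508 (-) for Cyp2c40 and chr19:39637501-39637750 (-) for Cyp2c67.
Cyp1a2: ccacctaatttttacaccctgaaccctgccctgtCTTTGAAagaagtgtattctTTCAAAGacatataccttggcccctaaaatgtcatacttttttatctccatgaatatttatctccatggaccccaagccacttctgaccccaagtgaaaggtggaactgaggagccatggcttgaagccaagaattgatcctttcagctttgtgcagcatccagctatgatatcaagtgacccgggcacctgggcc
Cyp2e1: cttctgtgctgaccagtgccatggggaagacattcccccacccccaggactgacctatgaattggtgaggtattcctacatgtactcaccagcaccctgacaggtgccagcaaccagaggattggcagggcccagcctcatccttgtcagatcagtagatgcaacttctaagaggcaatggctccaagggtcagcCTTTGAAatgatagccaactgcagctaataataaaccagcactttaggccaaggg
Cyp8b1: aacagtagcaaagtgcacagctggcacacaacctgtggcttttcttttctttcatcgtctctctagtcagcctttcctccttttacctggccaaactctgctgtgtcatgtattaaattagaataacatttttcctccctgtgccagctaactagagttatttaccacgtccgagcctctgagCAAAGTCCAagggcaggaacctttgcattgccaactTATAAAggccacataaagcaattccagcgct
Cyp2c40: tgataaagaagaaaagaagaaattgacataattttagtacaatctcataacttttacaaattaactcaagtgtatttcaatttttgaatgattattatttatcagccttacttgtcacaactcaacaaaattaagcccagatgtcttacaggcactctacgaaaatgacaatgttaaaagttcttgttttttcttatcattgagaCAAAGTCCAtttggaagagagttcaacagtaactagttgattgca
Cyp2c67: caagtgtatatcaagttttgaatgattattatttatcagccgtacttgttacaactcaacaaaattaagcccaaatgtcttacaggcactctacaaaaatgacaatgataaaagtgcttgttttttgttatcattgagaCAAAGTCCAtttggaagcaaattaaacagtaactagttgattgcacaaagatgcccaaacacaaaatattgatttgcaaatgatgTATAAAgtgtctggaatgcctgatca

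Most periportal genes did not pass the test. Of 33 tested landmarks 1 was higher and 1 was lower (0.234% and 0.229% of all tested genes). The median log2 fold change was -0.04, with 36.4% of the values above 0. At an unadjusted p under 0.05 there were 7 lower and 2 higher landmarks (4.64% and 5.52% of all). The groups did not overlap for 2 on the lower side and 0 on the higher side (1.83% and 1.69% of all). The periportal list was also chosen with earlier results of these data known. Cyp8b1, the sterol hydroxylase that sets the share of cholic acid, was at 154, 155, 221 and 177 CPM in 2n-whole and at 214, 236, 362 and 262 CPM in 4n-bottom (log2 fold change 0.59 ± 0.09, adjusted p = 0.000447). Aldh1b1, a mitochondrial aldehyde dehydrogenase, was at 307, 296, 240 and 303 CPM in 2n-whole and at 184, 229, 166 and 182 CPM in 4n-bottom, without overlap (-0.61 ± 0.12, adjusted p = 0.011). The urea cycle enzymes Ass1 (0.01 ± 0.07) and Cps1 (0.05 ± 0.07) had log2 fold changes near 0, and Cyp2f2, a P450 of periportal cells, was at -0.27 ± 0.11 (adjusted p = 0.364). Cyp8b1 is also among the genes of the middle of the lobule, of which 2 of 6 tested were higher. The other was Igfbp2, a binding protein of insulin-like growth factors, which went from 261, 194, 199 and 227 CPM to 382, 273, 282 and 316 CPM with no overlap (0.51 ± 0.09, adjusted p = 0.00172). The mid-lobular gene Hamp, hepcidin, did not pass the test (0.22, adjusted p = 0.6).

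**Figure D3:**
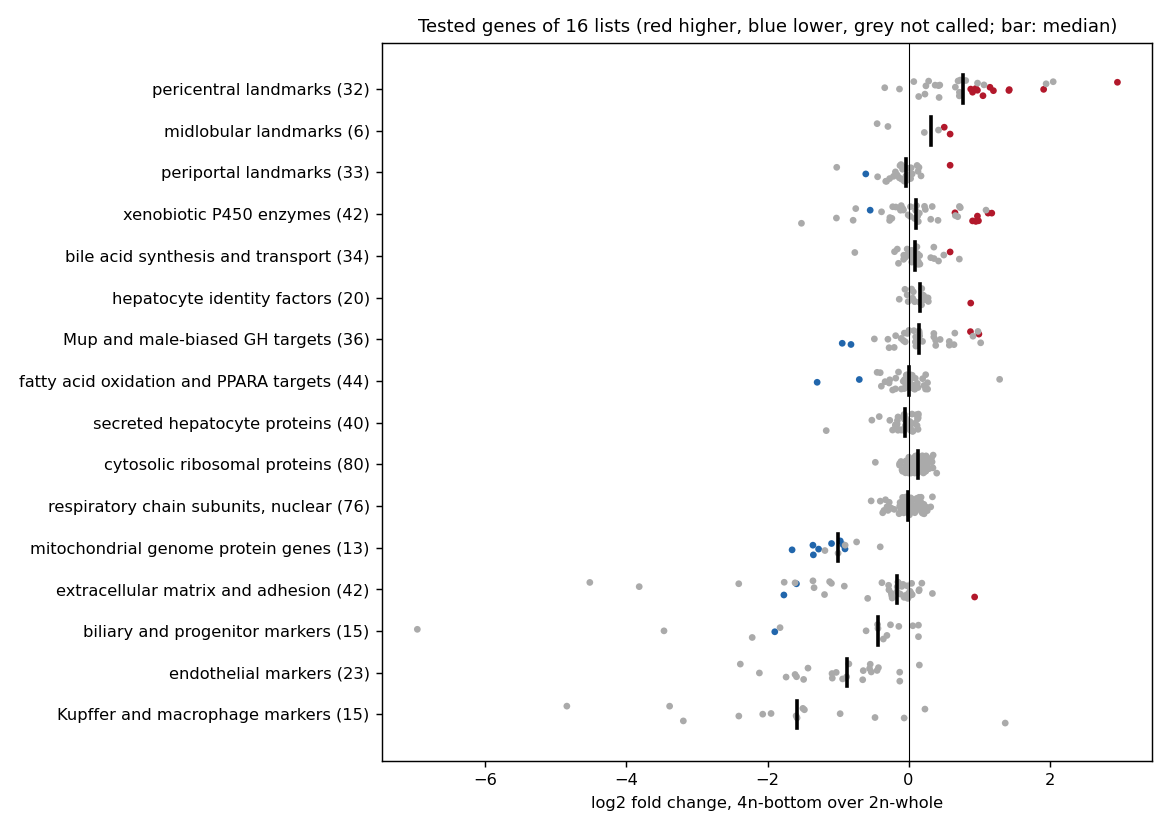
Log2 fold change of 4n-bottom over 2n-whole (x axis) of each tested gene of 16 lists (y axis, number tested in parentheses), with a bar at the list's median. Red and blue points mark called genes, and the pericentral median lies at 0.77, the mitochondrial at -0.999.

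Genes under male growth hormone signalling moved in both directions. Hsd3b5, a steroid dehydrogenase of the male liver, was at 63.1, 41.0, 11.7 and 12.5 CPM in 2n-whole and at 114, 67.4, 26.3 and 32.4 CPM in 4n-bottom. The mice differed more than the populations did, yet each was higher in 4n-bottom (1.00 ± 0.13, adjusted p = 0.000138). Elovl3, which elongates very long chain fatty acids, also rose in all mice (0.88 ± 0.14, adjusted p = 0.000723). Mup21, a major urinary protein, fell from 213, 197, 197 and 65.7 CPM to 120, 119, 111 and 35.3 CPM (-0.82 ± 0.10, adjusted p = 3.28e-05). Its fall was alike in the 4 mice (-0.73 to -0.90), although mouse 4 was low in both populations. Ugt2b38, a glucuronidation enzyme, fell from 91.2, 42.8, 35.9 and 34.0 CPM to 56.0, 24.6, 17.3 and 14.9 CPM (-0.94 ± 0.13, adjusted p = 0.000138), with mouse 1 high in both populations. In all, 2 of 36 tested genes of the list were higher and 2 were lower. Mup and Ugt2b genes belong to families of near-identical copies, so these values are uncertain as well.

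Other higher genes had no list in common. Npr2, the receptor of C-type natriuretic peptide, was at 5.35, 4.01, 7.20 and 3.74 CPM in 2n-whole and at 11.1, 10.0, 16.8 and 14.7 CPM in 4n-bottom, without overlap (1.37 ± 0.19, adjusted p = 0.000138). Gulo, which makes the last step of vitamin C synthesis, went from 27.6, 28.9, 33.7 and 43.7 CPM to 59.1, 45.6, 86.8 and 99.5 CPM, also without overlap (1.06 ± 0.15, adjusted p = 0.000389). The ribonucleases Ang (0.78, adjusted p = 0.000723) and Rnase4 (0.59, adjusted p = 0.0153) overlap on the same strand at chr14:51328534-51343608, so their reads may not be separate. Keap1, which holds back the stress factor NRF2, was higher by 0.62 (adjusted p = 0.0255), and Pcnt, pericentrin of the centrosome, by 0.52 (adjusted p = 0.0333). Cldn2, a tight junction protein, was higher by 0.94 (adjusted p = 0.0252), but was called in 2 of the 4 fits that left out a mouse, as Igfbp2 was, whereas Keap1 and Pcnt were called in 1. The remaining higher protein-coding genes were Susd4 (1.697), Dlec1 (1.10), Plbd1 (1.01), Hsf4 (0.87) and Csrp3 (0.80).

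The other 10 higher genes were not protein coding by the annotation. They were 5 long noncoding RNAs (A630031M04Rik, Gm15622, Gm41668, Gm42047 and Prox1os), 4 small RNAs (Gm25291, Snord15a, Gm25395 and Gm24514) and 1 pseudogene (Rpl10a-ps1). Prox1os, Gm15622 and Gm41668 overlap Prox1, Bhmt and Ttc39c on the opposite strand. The sources used here do not give the strand setting of the counting, so reads of these pairs may not be separate. The same limit holds for other called genes with a gene on the opposite strand, among them Dlec1 (Acaa1b), Nr1i3 (Tomm40l) and Hsf4 (Tradd). Rpl10a-ps1 overlaps Akr1cl on the same strand, so their reads may not be separate either. The snoRNA Gm25291 lies within Sec24a, and was at 7.81, 6.10, 4.21 and 4.94 CPM in 2n-whole and at 16.405, 14.1, 13.2 and 8.12 CPM in 4n-bottom, without overlap (1.16 ± 0.17, adjusted p = 0.000389). Snord15a, within the ribosomal protein gene Rps3, was at 4.63, 4.16, 4.87 and 3.33 CPM in 2n-whole and at 10.0, 9.36, 11.1 and 5.23 CPM in 4n-bottom (1.04 ± 0.23, adjusted p = 0.0327). Gm25395, a small Cajal body RNA within Atg16l1, rose by 1.97 ± 0.43 (adjusted p = 0.028) from 0.246 to 1.72 CPM in 2n-whole to 1.73 to 2.97 CPM in 4n-bottom. Reads of the host genes may have been counted on these RNAs, since each lies on the strand of its host. Small nucleolar RNAs guide the modification of other RNAs, and their classes are recognized by short boxes. The sequences below show which boxes each RNA holds, with the ACA box of Gm25291 and every TGATGA (C box) and CTGA (D box) of the other RNAs in capitals. They are from GRCm39 at chr11:51628606-51628749 (-), chr7:99131992-99132139 (-) and chr1:87704660-87704931 (+).
Gm25291: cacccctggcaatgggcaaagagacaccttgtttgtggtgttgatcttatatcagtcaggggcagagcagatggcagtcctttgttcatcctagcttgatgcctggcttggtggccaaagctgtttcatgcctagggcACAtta
Snord15a: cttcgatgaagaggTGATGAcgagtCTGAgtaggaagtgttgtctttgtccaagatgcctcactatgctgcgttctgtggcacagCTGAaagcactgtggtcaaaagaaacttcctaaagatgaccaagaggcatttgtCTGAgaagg
Gm25395: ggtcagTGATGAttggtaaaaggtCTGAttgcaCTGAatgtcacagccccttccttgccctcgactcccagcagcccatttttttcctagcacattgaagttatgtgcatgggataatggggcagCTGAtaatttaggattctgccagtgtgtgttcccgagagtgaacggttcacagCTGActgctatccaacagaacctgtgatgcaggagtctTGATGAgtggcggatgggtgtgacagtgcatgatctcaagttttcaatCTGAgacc

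Of the 40 lower genes, 29 were encoded outside the mitochondrial genome. Ly6e, a membrane protein induced by interferon, was at 186, 207, 124 and 175 CPM in 2n-whole and at 116, 142, 69.4 and 93.7 CPM in 4n-bottom (-0.75 ± 0.10, adjusted p = 0.000138). Rtn4, a reticulon that shapes the endoplasmic reticulum, was at 62.7, 59.97, 50.8 and 84.6 CPM in 2n-whole and at 40.4, 28.6, 25.8 and 44.4 CPM in 4n-bottom (-0.90 ± 0.12, adjusted p = 0.000138). The groups overlapped for Ly6e and not for Rtn4, and both genes fell in all 4 mice. Abhd2, a lipase, fell from 239, 195, 269 and 320 CPM to 141, 137, 151 and 200 CPM (-0.70 ± 0.10, adjusted p = 0.000389). Cd36, a receptor that takes up fatty acids, fell from 32.2, 30.4, 31.3 and 45.3 CPM to 13.5, 12.7, 12.1 and 18.2 CPM, without overlap and by nearly the same amount in each mouse (-1.25 to -1.37). Its log2 fold change was -1.30 ± 0.20 (adjusted p = 0.000696). Apoa4, an apolipoprotein of the fasting liver, fell from 50.4, 50.2, 41.98 and 83.8 CPM to 28.8, 33.5, 27.0 and 50.4 CPM (-0.69 ± 0.12, adjusted p = 0.00309).

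Some genes of the extracellular matrix and of cell adhesion were also among the lower ones. Mfge8, a secreted protein that bridges dying cells to phagocytes, was at 11.6, 15.36, 11.1 and 15.8 CPM in 2n-whole and at 2.97, 5.76, 3.30 and 6.75 CPM in 4n-bottom (-1.59 ± 0.22, adjusted p = 0.000138). Nid1, a basement membrane protein, was at 7.32, 6.28, 8.83 and 12.0 CPM in 2n-whole and at 1.2003, 2.59, 3.49 and 3.41 CPM in 4n-bottom (-1.77 ± 0.27, adjusted p = 0.000472). Neither gene overlapped between the groups. No overlap on the lower side held for 8 of the 42 tested genes of their list, against 320 (1.83%) of all tested genes. This list, too, was chosen with earlier results of these data known. Adamts1, a matrix protease, fell by 1.19 on the log2 scale (adjusted p = 0.00345), and Spp1, osteopontin, which bile duct cells and macrophages make, fell from 8.603, 8.12, 8.35 and 13.4 CPM to 4.06, 1.87, 0.467 and 4.99 CPM (-1.90 ± 0.36, adjusted p = 0.0072). Of 42 tested genes of the matrix and adhesion list, 2 were lower and 1, Cldn2, was higher, with a median log2 fold change of -0.16. Signalling genes among the lower ones were Fgfr1 (-1.13), Hes1 (-0.76), Tnfaip3 (-0.78), Klf6 (-0.76) and Inhba (-0.63). The replication gene Mcm5 was lower by -1.77 ± 0.41 (adjusted p = 0.0466), from 7.54, 5.07, 1.496 and 2.01 CPM to 1.71, 3.24, 0.0623 and 0.683 CPM, and was called in 1 of the 4 fits that left out a mouse. The other lower genes were Arhgap10, Btbd10, Cib3, Cyp4a31, Gm19619, Itih5, Obp2a, Setd7, Steap2 and 4921524J17Rik, between -0.62 and -1.75.

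The summed markers of other liver cell types were lower in 4n-bottom than in 2n-whole in 4 of 4 mice for endothelial and for biliary cells, in 3 for macrophages and for stellate cells, in 2 for erythroid cells and platelets, and in 1 for lymphocytes. Of 26 endothelial markers 23 were tested, edgeR called 0 (5 had an unadjusted p under 0.05, all lower), 4.35% had a value above 0, and the median log2 fold change was -0.88. Their summed expression was 47.6, 55.5, 33.5 and 36.5 CPM in 2n-whole and 41.8, 52.6, 13.6 and 12.6 CPM in 4n-bottom, lower in mice 3 and 4 by more than in mice 1 and 2. Of 24 Kupffer cell and macrophage markers 15 were tested with 0 called, 2 lower at an unadjusted p under 0.05 and a median of -1.58, and their sum was 3.48 to 15.3 CPM in 2n-whole and 1.90 to 7.17 CPM in 4n-bottom. Spp1 was the 1 called gene of 15 tested biliary and progenitor markers, whose median was -0.43 and whose sum was 1419 to 1687 CPM in 2n-whole and 1318 to 1421 CPM in 4n-bottom. Of these 15 markers 8 were lower and 0 higher at an unadjusted p under 0.05 (4.64% of all genes were lower). On the lower side 3 did not overlap (1.83% of all). The marker lists, too, were chosen with earlier results of these data known. The stellate and fibroblast markers (10 of 23 tested, 0 called, 2 lower at an unadjusted p under 0.05, median -0.10) summed to 6.87 to 10.1 CPM and 3.49 to 7.43 CPM. Both tested lymphocyte markers, Ighm (-0.09) and Cd4 (-0.0032), were at low expression, and their sums were 1.701 to 2.64 CPM and 0.312 to 2.76 CPM. Of 12 erythroid and platelet markers 4 were tested and 0 called, with 0 at an unadjusted p under 0.05 and sums of 66.5 to 86.0 CPM and 72.0 to 107 CPM. Of the defining markers, Epcam was at 0 in all 4n-bottom libraries, and Nkg7 and Pf4 were at 0 in all 8 libraries. Raw counts summed over each population were higher in 4n-bottom for Pecam1 (118 in 2n-whole and 146 in 4n-bottom) and Lrat (34 and 42). The same held for Reln (320 and 345), Col1a1 (20 and 39) and Alas2 (10297 and 11953). All other defining markers with counts were lower in 4n-bottom, among them Stab2 (801 and 756), Vsig4 (78 and 6) and Dcn (96 and 14). In bulk libraries fewer cells of a type and less RNA per cell cannot be told apart, and the part of these cells in the lower genes was not tested.

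Transcripts of the mitochondrial genome were lower in 4n-bottom in 3 of the 4 mice. Of its 13 protein genes 8 were lower and 0 higher, with a median log2 fold change of -0.999, and both ribosomal RNAs (mt-Rnr1, -0.74, and mt-Rnr2, -0.69) and the tRNA mt-Tp (-2.09) were also lower. All 13 protein genes are subunits of the respiratory chain or of ATP synthase. mt-Nd6, a subunit of complex I (chrM:13552-14070, - strand), was at 1378, 1603, 1205 and 1243 CPM in 2n-whole and at 1247, 647, 359 and 345 CPM in 4n-bottom (-1.28 ± 0.20, adjusted p = 0.000723). mt-Nd3 was at 56.8, 62.4, 37.4 and 60.8 CPM in 2n-whole and at 40.1, 22.7, 7.76 and 11.45 CPM in 4n-bottom (-1.65 ± 0.29, adjusted p = 0.00322). Mouse 1 changed least for both, by -0.14 and -0.50 on the log2 scale, and these were the 2 called mitochondrial genes that fell in all 4 mice. The other called genes were mt-Nd1 (-0.97), mt-Nd2 (-1.36), mt-Nd4 (-1.35), mt-Nd5 (-1.09), mt-Cytb (-0.93) and mt-Co1 (-0.90). For mt-Nd4 the difference was 0.06 in mouse 1 and -1.44, -1.86 and -2.03 in mice 2, 3 and 4. mt-Nd6 and mt-Nd5 overlap on opposite strands, so reads of their shared end may not be separate. Without mouse 1, 10 of the 13 protein genes were called.

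**Figure D4:**
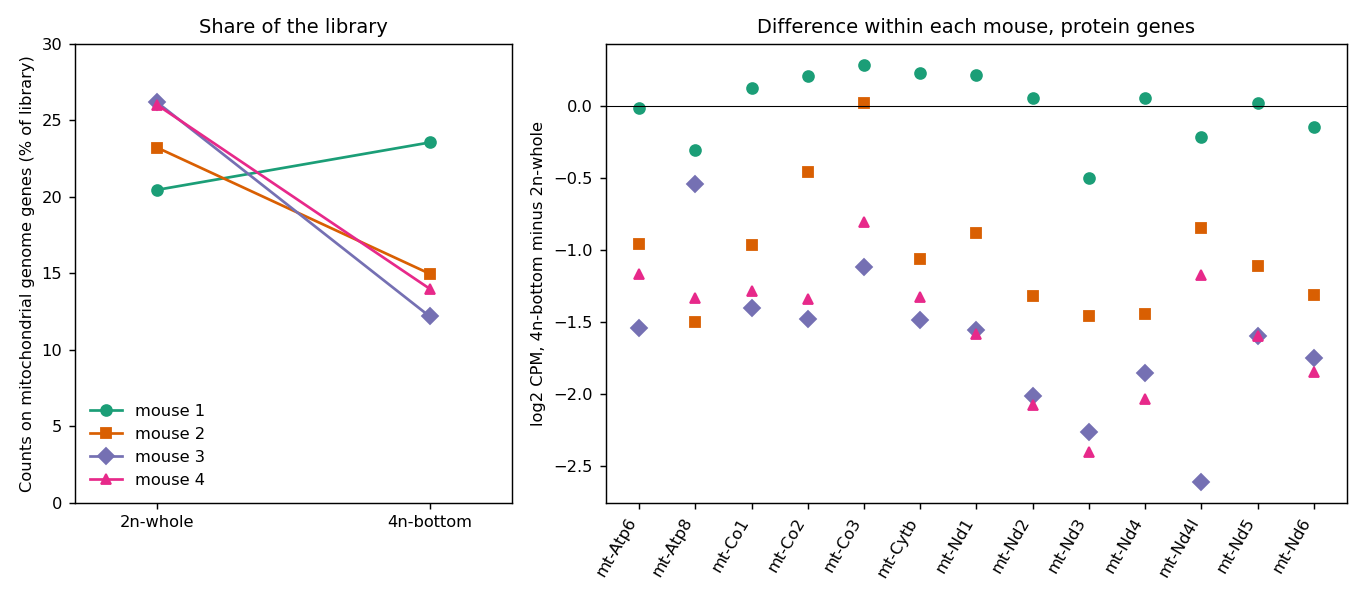
Left, the share of counts on mitochondrial genome genes (y axis, %) in the 2n-whole and 4n-bottom libraries of each mouse. Right, the log2 CPM difference, 4n-bottom minus 2n-whole, of the 13 mitochondrial protein genes (x axis) in each mouse, where mouse 1 (circles) lies nearest to 0 or above it for most genes.

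Among the nuclear genes of the respiratory chain edgeR called 0 of 76 tested subunits. Of these, 4 had an unadjusted p under 0.05 on the higher side and 6 on the lower side, and their median was -0.00068. Cytosolic ribosomal proteins had 0 called of 80 tested with a median of 0.13, and 19 of them had an unadjusted p under 0.05 on the higher side and 0 on the lower side. With the genes of the mitochondrial genome and of ribosomal RNA left out of the fit, 60 genes were called, and these were all among the 81. The 11 mitochondrial genes among the 81 were not in that fit, and 10 other genes lost their call.

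The fractions of the 4n cells were then set side by side, with the tests between 4n-bottom and each of the others in the same fit. They share the 4n-bottom libraries with the comparison above. Against 4n-whole 1 gene differed (0.00572% of those tested, with 974 genes or 5.57% at an unadjusted p under 0.05), and it was not among the 81. Csad, which makes taurine from cysteine (chr15:102085432-102113498, - strand), was at 35.7, 96.1, 99.1 and 91.1 CPM in 2n-whole, at 41.2, 137, 146 and 128 CPM in 4n-bottom, at 89.5, 209, 202 and 225 CPM in 4n-whole, and at 187, 257 and 206 CPM in 4n-top (mice 2, 3 and 4). 4n-bottom was lower than 4n-whole by 0.75 on the log2 scale (SE 0.10, adjusted p = 0.00107). The Csad fold change over 2n-whole, 0.45 ± 0.10 (adjusted p = 0.0359), was under the fold limit. Against 4n-top 2 genes differed (0.0114%, with 488 genes or 2.79% at an unadjusted p under 0.05), Csad (-0.72, adjusted p = 0.0098) and Glul (0.90 ± 0.16, adjusted p = 0.0499). These 2 were chosen as the only genes called in the direct tests. Against 4n-whole 0 genes were called without mouse 1, 29 without mouse 2, 65 without mouse 3 and 1 without mouse 4, and Csad was lost without mouse 1. Against 4n-top the counts were 3, 29, 0 and 0, so that both calls were lost without mouse 3 or mouse 4.

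Glul was at 26.1, 64.6 and 105 CPM in 4n-top and at 111, 44.7, 82.1 and 176 CPM in 4n-whole. Its order of means was 4n-bottom (119), 4n-whole (103), 4n-top (65.2) and 2n-whole (40.7). The difference of 4n-bottom from 4n-whole was smaller than its SE (0.13 ± 0.14). Slc1a2 had the same order of means, with 39.0 CPM in 4n-bottom, 31.4 in 4n-whole, 21.4 in 4n-top and 10.2 in 2n-whole, and its difference from 4n-top missed the threshold (1.08 ± 0.20, adjusted p = 0.0663). All means of 4n-top given here are over mice 2, 3 and 4 only, and those of the other populations over mice 1 to 4. For Cyp1a2 and Cyp2e1 the mean of 4n-bottom lay between that of 2n-whole and those of the other 4n populations. Cyp1a2 averaged 122 CPM in 2n-whole, 245 in 4n-bottom, 403 in 4n-whole and 384 in 4n-top, with adjusted p = 0.151 against 4n-whole and 0.907 against 4n-top. Cyp2e1 averaged 374, 751, 1345 and 1425 CPM in the same order (adjusted p = 0.183 and 0.907). Mfge8 averaged 13.5, 4.70, 3.37 and 3.32 CPM (adjusted p = 0.882 and above). Of the 81 genes 0 were called against 4n-whole and 1, Glul, against 4n-top. An unadjusted p under 0.05 was obtained for 42 and 37 of them (5.57% and 2.79% of all genes). The 81 had been chosen with the same 4n-bottom libraries, so their contrast with all genes is descriptive only.

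**Figure D5:**
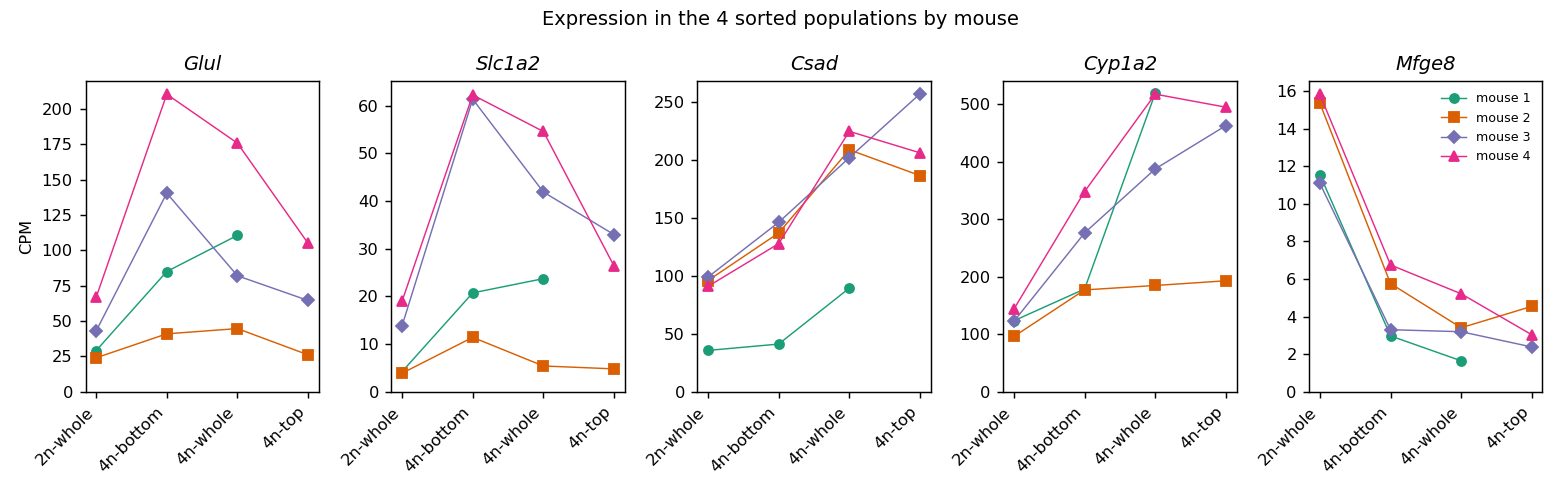
CPM (y axes, from 0) of 5 genes in the 2n-whole, 4n-bottom, 4n-whole and 4n-top libraries (x axes), with a line for each mouse (no 4n-top library of mouse 1). In mice 2, 3 and 4 Csad is lower in 4n-bottom than in 4n-whole and 4n-top, while Glul is higher in 4n-bottom than in 4n-top.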

How the data were processed

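RNA-seq libraries of sorted hepatocytes from 4 mice were compared. Per the labels, libraries were made with the SMART-Seq Stranded kit. The authors aligned reads to GRCm39 with STAR (2.7.11a in the submitters' processing notes) and assigned them to genes with featureCounts. The table they deposited holds raw counts without normalization. The gene annotation, strand setting and handling of read pairs are not given in the sources used here. If both reads of a pair were counted, the counts overstate the fragments and the depth, which was not tested beyond the alternative with counts halved. No libraries were identical.

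Genes were tested with edgeR 4.0.16 in R 4.3.3 on all 15 libraries, with TMM normalization, the default filter (minimum count 10, minimum total 15), population as factor and mouse as block, and Benjamini-Hochberg adjustment over 17488 genes. Genes were called at the thresholds of the study (adjusted p 0.05, log2 fold change 0.5). Log2 CPM differences used a prior count of 2. Libraries with the same subject number come from 1 animal, and their deviations from the population means correlated across genes by 0.109 to 0.201 in the 4 mice. The SE of a log2 fold change was derived from edgeR's F statistic in the fit with the mouse as block. It leaves out the level differences that all libraries of a mouse share, so it is not the spread of levels between mice. Positions and sequences are from GRCm39 with GENCODE M39, in which 55865 symbols had a position. With 12 genes named per direction (smallest p among called genes moving the same way in 4 mice) and 2 per list (smallest p), other called genes were named with their fold change. The genes compared and the 33 lists were chosen with earlier results of these data known.

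Alternatives were no block, DESeq2 1.42.0 with the block, ComBat-seq (sva 3.50.0) followed by DESeq2, DESeq2 size factors, no filter, the compared populations only, counts halved, mitochondrial and ribosomal RNA genes left out, no fold limit and leaving out each mouse. The methods were tested on simulated data.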

Additional observations from a re-analysis of the deposited data

Results flagged for a closer look

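Of 234 groups of 4 values examined (the named genes and library measures), 19 had a highest or lowest value whose gap to the next, divided by the range, exceeded Dixon's 95% limit. Chance alone gives about 1 in 20 such groups, or 5%. Mouse 4 was apart for Mup21 (65.7 CPM in 2n-whole and 35.3 CPM in 4n-bottom, the lowest in both), for Cyp4a31 (24.7 CPM in 2n-whole and 14.8 CPM in 4n-bottom, the highest in both), and, as the highest 2n-whole value, for Cd36 (45.3 CPM) and Spp1 (13.4 CPM). It also had the only 4n-bottom value of Vsig4 above 0 (0.158 CPM). Mouse 1 was apart in 2n-whole for Ugt2b38 (91.2 CPM, highest) and Csad (35.7 CPM, lowest), and for the log2 difference of Ado (0.86, highest). Mouse 2 was apart in 2n-whole for Adamts1 (18.5 CPM, highest), Ehd3 (5.79 CPM, highest) and Rora (118 CPM, lowest), for the log2 difference of Pola1 (-0.40, the smallest fall), and for the summed erythroid and platelet markers in 4n-bottom (107 CPM, highest). Mouse 3 was apart in 2n-whole for Aldh1b1 (239.9 CPM, lowest), Ugt1a6b (24.4 CPM, highest) and B2m (685 CPM, lowest), and in 4n-bottom for Krt23 (0.561 CPM, lowest).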

How the results depend on the processing

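Without the replicate block 0 genes were called in total, 0 higher and 0 lower, with 866 at an unadjusted p under 0.05, and 0 against 4n-whole and 0 against 4n-top (377 and 335 at that p). DESeq2 with the block called 143 genes (51 higher and 92 lower, against 41 and 40, 73 of the 81 included), and ComBat-seq followed by DESeq2 called 309 (119 higher, 190 lower, 79 included). Without a filter on low counts 145 were called (73 higher, 72 lower, all 81 included). With mitochondrial and ribosomal RNA genes left out 35 higher and 25 lower genes were called, and with DESeq2 size factors 33 and 43. With 1 mouse left out, the total lay between 49 (without mouse 4) and 111 (without mouse 2), the higher genes between 23 and 60, and the lower genes between 26 and 51. Against 4n-whole, 44 genes were called by DESeq2 with the block, 38 after ComBat-seq, 3 with DESeq2 size factors, 45 without a filter, 0 with the compared populations only (744 at an unadjusted p under 0.05), 2 without mitochondrial and ribosomal RNA genes, and 0 to 65 with 1 mouse left out (0 without mouse 1, 29 without mouse 2, 65 without mouse 3). Against 4n-top the counts were 49, 19, 2, 25, 15, 2 and 0 to 29 in the same order (29 without mouse 2, 0 without mouse 3 or mouse 4), and 1 with counts halved. The cause of these changes was not tested. No called gene reversed. Cd4, -0.0032 in the fit with the block and -0.17 without mouse 2, turned positive without the block (0.13), with the compared populations only (0.037), with counts halved (0.023), without mouse 3 (0.13) and without mouse 4 (0.079), and Ighm, -0.73 without mouse 1, did so in the first 4 of these (0.49, 0.075, 0.19 and 0.79), with neither gene called in any of them. Over all named genes and settings, 1156 values kept their side of the threshold, 227 lost it and 12 gained it. Depth limits genes of low expression, and edgeR called 0 of the 4372 genes with a mean log2 CPM under -0.83. With counts halved, 75 genes were called.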

Other observations

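Other gene groups gave few calls. The 20 hepatocyte identity factors had a median log2 fold change of 0.17 with Nr1i3 as the 1 higher gene. Of the 40 secreted hepatocyte proteins edgeR called 0 (median -0.05, 3 lower at an unadjusted p under 0.05), and of 24 apolipoprotein and lipoprotein genes Apoa4 was the 1 called (median 0.05). Of 47 phase II conjugation enzymes 1, Ugt2b38, was lower (median -0.06), and 5 had an unadjusted p under 0.05 in each direction. Of 34 bile acid genes 1, Cyp8b1, was higher (median 0.09), and 7 had an unadjusted p under 0.05 on the higher side and 0 on the lower side. Cyp27a1, which starts the alternative route of bile acid synthesis, had an adjusted p of 0.0067 in edgeR's test but a log2 fold change of 0.43, under the fold limit, with no overlap between groups (169 to 200.2 CPM in 2n-whole and 229 to 264 CPM in 4n-bottom). Cyp7a1, the rate-limiting enzyme of the main route, did not pass the test (0.72, adjusted p = 0.0806).

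Of 44 genes of fatty acid oxidation and PPARA targets 2 were lower, Cd36 and Cyp4a31 (median 0.0052), and of 45 genes of fatty acid and cholesterol synthesis Elovl3 was the 1 called (median -0.04). Of 63 genes of amino acid breakdown and the urea cycle 1, Oat, was higher (median 0.06), and 9 had an unadjusted p under 0.05 on the higher side and 0 on the lower side. Taurine and cysteine genes had 0 called of 17 (median 0.07, 3 higher at an unadjusted p under 0.05). The 15 tested female-biased growth hormone targets held 1 higher gene, Cyp2c40, and 1 lower gene, Rtn4 (median -0.26). Of 30 genes of DNA replication 1, Mcm5, was lower (median -0.14), and of 37 genes of mitosis and cytokinesis 0 were called (median -0.20, 4 at an unadjusted p under 0.05, all lower). Casp2, which takes part in the ploidy checkpoint, was at 3.94, 3.56, 3.23 and 3.25 CPM in 2n-whole and at 2.29, 2.21, 2.12 and 2.26 CPM in 4n-bottom. Its groups did not overlap, but the adjusted p was 0.405 in edgeR's test. Immediate early and stress genes (34 tested, median 0.11) and genes of the interferon response (41 tested, median -0.03) had 1 lower gene each, Klf6 and Ly6e. Cytoskeleton genes (37 tested, median -0.02), iron genes (23 tested, median -0.01) and clock genes (19 tested, median 0.06) had 0 called, with 0, 2 and 1 genes at an unadjusted p under 0.05 on the higher side and 3, 2 and 3 on the lower side. Of 8 tested transcripts known to be retained in the nucleus 0 were called, with a median of 0.24 and 4 at an unadjusted p under 0.05 on the higher side, among them Malat1 (0.24 ± 0.10, adjusted p = 0.411).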
